A study of Mus musculus with 31 samples.

Results

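The transcriptomes of sorted mouse astrocytes were compared between animals labelled as having received cytokine 2 times (2X cytokine) and animals labelled as having received it 1 time (1X cytokine). The comparison used the 3 RNA-seq libraries titled 2X cytokine and the 3 titled 1X cytokine, 6 of the 31 samples of the series, chosen by their titles alone. Per the labels all were astrocytes of female C57Bl/6 mice aged 10 weeks, kept specific-pathogen-free (SPF). IL-1β at 100 ng/mL with TNF-α at 50 ng/mL in PBS was injected into the lateral ventricles on both sides of the brain. The 2X group was injected a second time on day 7 and the 1X group was injected on day 7 only, and cells were sorted 18 to 24 hours after that last injection. A short description label names TNF-α alone. The 3 libraries labelled 2X PBS and the 3 labelled 1X PBS received the carrier on the same schedule. They served to measure what a second injection did without cytokine. No source used here names the sort markers or says whether a library is 1 animal. The p-values therefore set the difference between groups only against the spread of libraries within groups, estimated over all groups in a fit, and that spread may be technical.

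Astrocytes are glial cells that feed neurons, clear glutamate and potassium, and form the endfeet around brain vessels. IL-1β and TNF-α act on them through their receptors, adaptor proteins and the transcription factor NF-kB, and drive a reactive state with more Gfap, acute-phase proteins, complement and chemokines. The series title names an epigenetic memory of astrocytes, and the comparison of a second with a first exposure addresses whether the response to cytokine differs when the cells have met it before.

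Libraries are named below by their labels, and 1 of the 6 stood apart. On the first principal component of the 6 cytokine libraries, which held 39.6% of the variance, 1X cytokine replicate 1 scored 71.9 and the other 5 scored from -22.6 to -5.17. Across genes its Pearson correlation was 0.915 with replicate 2 and 0.900 with replicate 3 of its own group, but 0.956 and 0.960 with replicates 2 and 3 of 1X PBS. The library labelled 1X PBS replicate 1 did the reverse, with 0.953 and 0.953 to 1X cytokine replicates 2 and 3 and 0.854 and 0.864 to the other 1X PBS libraries. Both libraries thus resembled the other label more than their own, why was not tested, and results are given with and without them. The groups also went against what their names lead one to look for: Lcn2, an acute-phase gene that inflammatory cytokines induce, had 363 to 1076 CPM in 5 of the 6 PBS libraries and 1.20 to 15.0 CPM in 5 of the 6 cytokine libraries, the exceptions being the replicate 1 libraries of both 1X groups, at 5.33 CPM in PBS and 797 CPM in cytokine. The labels were kept as given, so each direction below is between libraries labelled 2X and 1X cytokine. Library totals were between 1878418 and 4035251 estimated counts in the cytokine groups, and mitochondrially encoded genes took 4.29% to 5.83% of the counts over all libraries. Astrocyte markers were present: none of the 10 was at 0 in all 6 libraries, their geometric mean level ran from 582 to 1008 over the 6, and Slc1a3, a glutamate transporter, had 2731 to 6961 CPM (counts scaled to the TMM-adjusted library size).

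Few genes separated the groups in a test over all genes. Among 14490 genes tested with edgeR in one fit of 12 libraries, 4 passed an adjusted p of 0.05, which is 0.0276%. Timp1 was lower in 2X cytokine (1 gene, 0.0069%), and 3 annotated copies of a single short sequence were higher (0.0207%). At an unadjusted p under 0.05 there were 1015 genes, or 7%, of which 698 (4.82%) were lower and 317 (2.19%) higher. In 12.5% of all genes the 3 libraries of one group did not overlap those of the other, with 5.71% higher and 6.76% lower in 2X cytokine. Without 1X cytokine replicate 1 edgeR called 0 genes, with 729 of 14709 (4.96%) at an unadjusted p under 0.05. The excess of lower genes was not kept: of the 14432 genes tested in both fits, 377 were higher and 338 lower at that threshold. In that fit 48.8% of genes had a higher and 51.1% a lower fitted value.

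**Figure D1:**
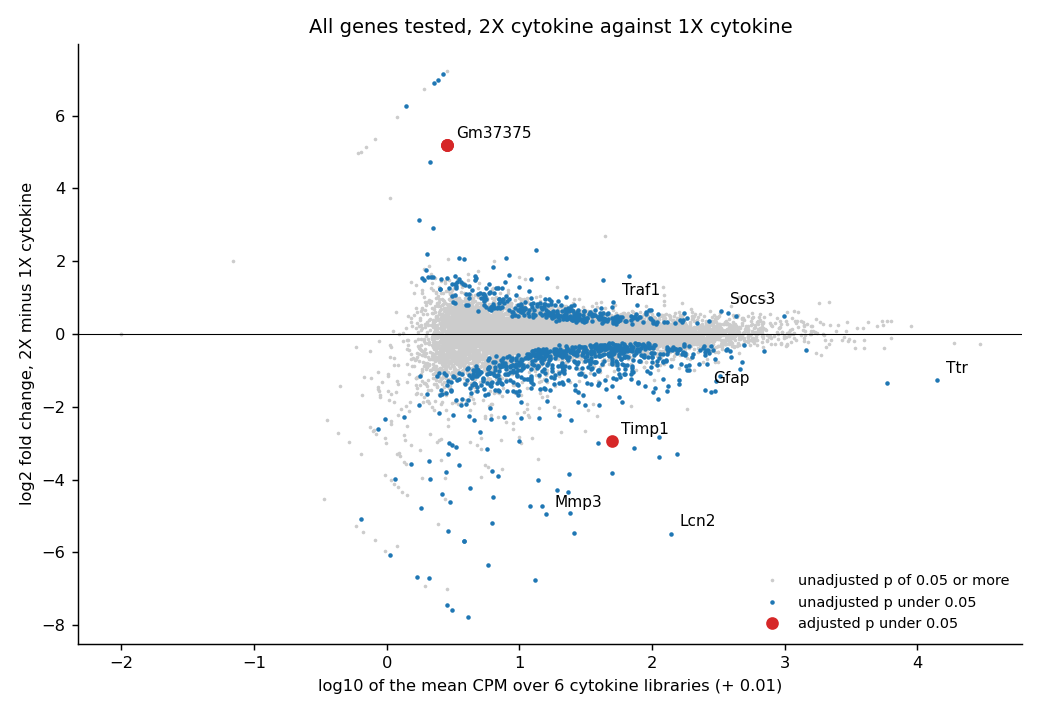
Each point is 1 of 14490 genes, with the log10 of its mean CPM over the 6 cytokine libraries (plus 0.01) on the x axis and its log2 fold change, 2X minus 1X cytokine, on the y axis. Red marks the 4 genes with an edgeR adjusted p under 0.05 (the 3 copies lie on one point), blue an unadjusted p under 0.05; the blue points below 0 (698) outnumber those above it (317), which did not hold without 1X cytokine replicate 1 (338 and 377).

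Timp1, which encodes a secreted inhibitor of matrix metalloproteinases and is a marker of reactive astrocytes, was the 1 protein-coding gene that passed (chromosome X, 20870166 to 20874735, plus strand, GRCm38). Its level was 135, 83.3 and 45.6 CPM in 1X cytokine replicates 1 to 3 and 17.5, 6.03 and 11.1 CPM in 2X cytokine. Every 1X library lay above every 2X library. Timp1 fell from 87.9 ± 44.7 to 11.5 ± 5.75 CPM (SD, n = 3), or by 2.94 on the log2 scale (SE 0.39; edgeR adjusted p 0.0422). Without 1X cytokine replicate 1 the log2 fold change was -2.47 and the adjusted p 0.2195, so the call was lost. It was kept without 1X cytokine replicate 3 (0.0154) and lost without any other single library, PBS libraries included, at edgeR adjusted p-values of 0.0517 to 0.411. In the PBS libraries Timp1 did not have this pattern: it had 143, 124 and 129 CPM in 1X PBS and 192, 180 and 158 CPM in 2X PBS.

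The 3 higher calls were Gm37375 on chromosome 9, Gm37385 on chromosome 1 and Gm43590 on chromosome 3, unclassified models of 387 bases each. Gm37385 has the same letters as Gm37375 and Gm43590 is their reverse complement, and the 3 had the same estimated count in each library, so they stand for at most 1 signal. Each copy had 1.32, 0 and 0 estimated counts in 1X cytokine and 8.18, 21.2 and 20.5 in 2X cytokine, low for a single copy. Counts of the 3 copies were not added up, so the joint signal may be larger than these values. No fold change is given because each copy was under a floor of 3 counts in the 1X libraries. The level of each copy in the PBS libraries was 4.16 to 7.20 CPM, near the 2.86 to 7.91 CPM of 2X cytokine.

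Outside Timp1, protein-coding genes were picked for the smallest unadjusted p and no overlap between the groups, so their separation follows from the choice. Their log2 fold changes were 0.45 to 0.95 on the higher side and -1.23 to -0.50 on the lower side. None of them passed the adjusted threshold. Socs3, the feedback inhibitor of gp130 and STAT3 signalling, had 289, 244 and 252 CPM in 1X cytokine and 417, 433 and 355 CPM in 2X cytokine. Its log2 fold change was 0.62 (SE 0.16, edgeR unadjusted p 0.0020, adjusted p 0.689), and 0.71 without 1X cytokine replicate 1. Traf1, an adaptor of TNF receptors that NF-kB induces, had 35.9, 28.0 and 45.1 CPM in 1X cytokine against 66.4, 64.0 and 66.6 CPM in 2X cytokine, or 0.86 higher on the log2 scale (SE 0.19). The 2X values of Traf1 lay close together and above all 1X values. For Bbox1, an enzyme of carnitine synthesis, the levels were 29.2, 32.3 and 31.3 CPM in 1X cytokine and 53.9, 51.6 and 47.4 CPM in 2X cytokine, or 0.72 higher on the log2 scale (SE 0.13). The others of this kind on the higher side were Elk1, Rmnd1, Car9, Kazn and St3gal6, with log2 fold changes of 0.45 to 0.95.

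On the lower side, Hmox1, the haem-degrading enzyme of the oxidative stress response, had 39.8, 38.4 and 25.3 CPM in 1X cytokine and 20.7, 20.7 and 17.7 CPM in 2X cytokine. Inmt, a methyltransferase of small amines, had 13.3, 22.7 and 14.3 CPM against 5.36, 9.04 and 6.90 CPM. Tspan4, a tetraspanin, had 82.8, 78.3 and 67.0 CPM against 53.6, 49.4 and 45.3 CPM. In each of these genes the lowest 1X library was above the highest 2X library, and the log2 fold changes were -0.83, -1.23 and -0.63. Lima1, Rsl1d1, Mtap and Rabgap1l, with log2 fold changes between -0.76 and -0.50, completed the group. Stra6 and Dbi were picked after their values were seen. Stra6, a retinol transporter that choroid plexus also expresses, had 149, 66.4 and 65.9 CPM in 1X cytokine and 28.9, 22.6 and 26.1 CPM in 2X cytokine, and Dbi, an acyl-CoA-binding protein, had 838, 807 and 841 CPM against 1157, 1148 and 1176 CPM.

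**Figure D2:**
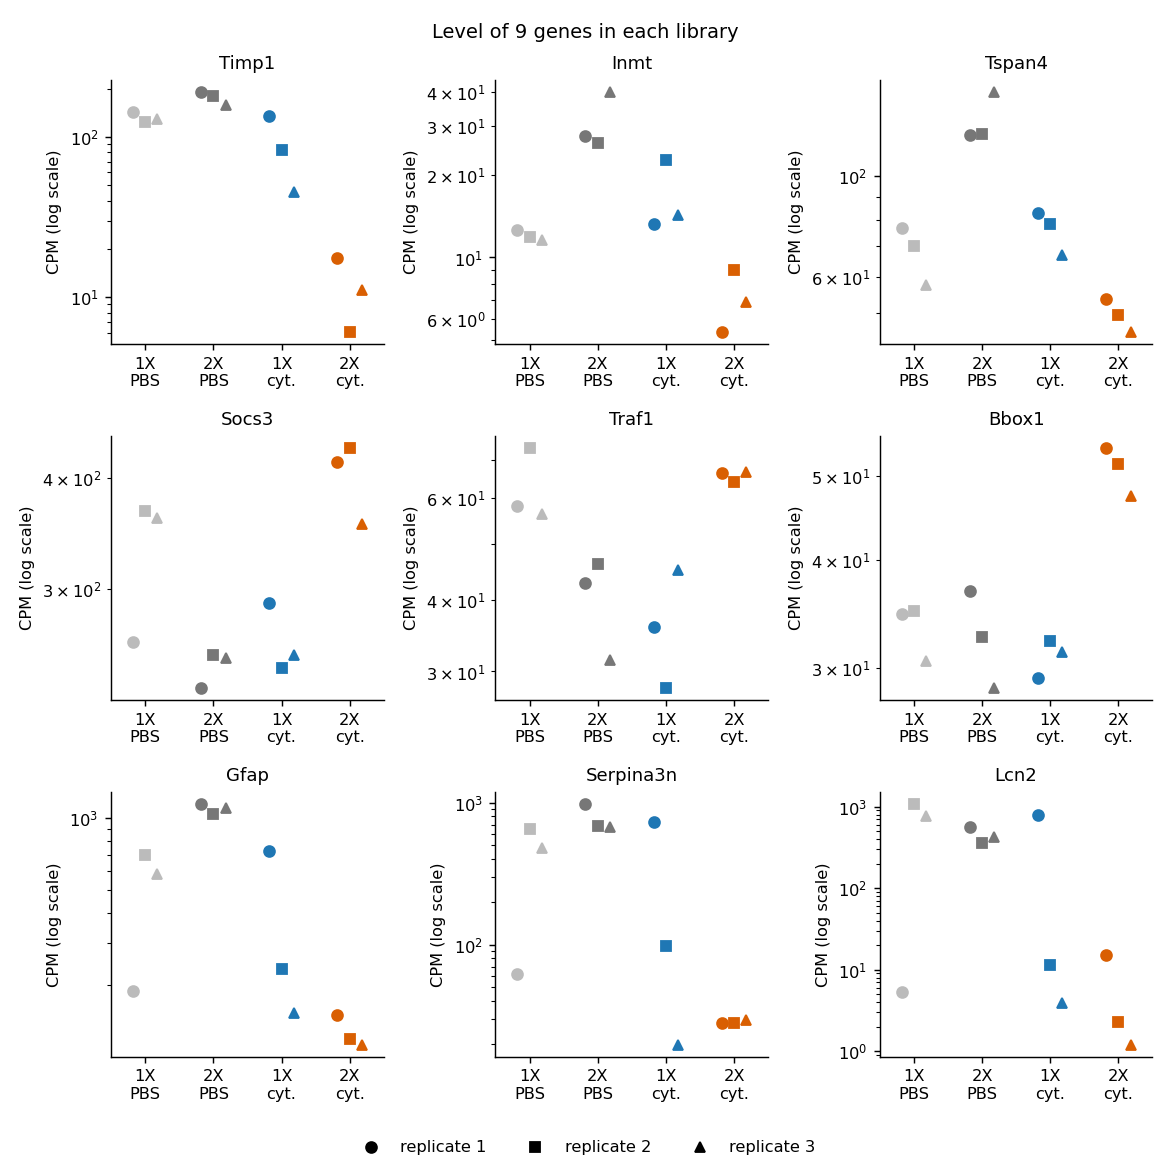
The level of 9 genes in each of the 12 libraries is shown in CPM on a log scale, by group on the x axis, with 1 symbol per replicate number. The 2X cytokine libraries lie below the 1X cytokine libraries for Timp1, Inmt, Tspan4 and Gfap and above them for Socs3, Traf1 and Bbox1, while for Serpina3n and Lcn2 the high value in the 1X cytokine group is that of replicate 1.

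Sequence before the RefSeq start is shown for Timp1, the gene called, and for Socs3, because it holds the 1 motif match found. It was taken from the RefSeq table of GRCm38.p6, 250 bases before the start; both genes matched by symbol. For Socs3 the 165 bases farthest from the start are shown, since GENCODE puts an exon of the gene in the rest. GENCODE starts Socs3 at 117970047, ahead of this window on the minus strand, so the bases shown lie inside the gene by that annotation. Both strands were searched for the STAT motif TTCNNNGAA, the AP-1 motif TGANTCA and the NF-kB consensus. Capitals mark a match.
Timp1, chrX:20869916-20870165, plus strand: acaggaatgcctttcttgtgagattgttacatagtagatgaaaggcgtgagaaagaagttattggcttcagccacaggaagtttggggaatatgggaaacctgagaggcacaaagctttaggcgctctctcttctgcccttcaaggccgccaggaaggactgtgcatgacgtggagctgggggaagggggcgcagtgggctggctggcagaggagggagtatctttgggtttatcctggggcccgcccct
Socs3, chr11:117969452-117969616, minus strand: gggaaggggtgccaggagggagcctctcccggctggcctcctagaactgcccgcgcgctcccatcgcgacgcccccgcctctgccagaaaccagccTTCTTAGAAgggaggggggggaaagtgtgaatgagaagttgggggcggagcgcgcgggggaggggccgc
The Timp1 window held none of the 3 motifs and the Socs3 window held 1 STAT match, TTCTTAGAA. That match begins 154 bases before the RefSeq start, inside the gene by GENCODE. Among 32851 windows of the same length in the table, 7.02% held a STAT match, 6.75% an AP-1 match and 7.25% an NF-kB match. Because Socs3 was picked for its match, that match cannot be set against these shares. A match is a description of letters and says nothing of binding.

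Most reactive astrocyte genes had lower fitted values in 2X cytokine, 1 passed the test, and the size of the differences depended on 1X cytokine replicate 1. Of 13 pan-reactive genes 12 had a lower fitted value, where 52.3% of all genes did, and 1 (Timp1) passed the adjusted threshold. At an unadjusted p under 0.05 there were 7 lower, beside 4.82% of all genes, and 1 without 1X cytokine replicate 1. Their median log2 fold change was -1.27, against -0.01 over all genes, and -0.40 without 1X cytokine replicate 1, with 9 of 13 lower. Gfap, the intermediate filament gene that marks reactive astrocytes, had 725, 233 and 153 CPM in 1X cytokine and 150, 119 and 113 CPM in 2X cytokine. The groups did not overlap for Gfap, although 1X cytokine replicate 3 was close to 2X cytokine replicate 1. Gfap missed the threshold (log2 fold change -1.54, edgeR adjusted p 0.689), and the value was -0.59 without replicate 1. Serpina3n, a serine protease inhibitor, had 727, 98.7 and 19.8 CPM in 1X cytokine and 28.2, 28.3 and 29.7 CPM in 2X cytokine. Lcn2, the iron-chelating acute-phase protein lipocalin 2, had 797, 11.5 and 3.85 CPM against 15.0, 2.26 and 1.20 CPM. For both genes 1X cytokine replicate 1 was the highest library by far, and the other libraries of the groups overlapped. Steap4, a metalloreductase, had 89.0, 22.3 and 12.1 CPM in 1X cytokine and 9.28, 6.78 and 8.70 CPM in 2X cytokine, with no overlap and a log2 fold change of -1.07 without replicate 1.

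Complement and acute-phase genes had the same dependence on that library: 18 of 18 had a lower fitted value with a median of -1.08, which became -0.37 with 13 of 18 lower when 1X cytokine replicate 1 was left out. None passed the adjusted threshold. C3, the central complement protein, had 589, 22.7 and 10.4 CPM in 1X cytokine and 22.5, 17.7 and 19.5 CPM in 2X cytokine, and its log2 fold change went from -3.39 to 0.24 without that library. The reactive genes of neuroinflammation had a median of -0.80 and, without that library, -0.12. Among them Fbln5, an elastic fibre protein, kept its size, with 69.1, 97.5 and 58.8 CPM in 1X cytokine, 40.0, 52.4 and 36.0 CPM in 2X cytokine, and log2 fold changes of -0.82 and -0.87 with and without that library. Of 20 metalloproteinases and their inhibitors 17 had a lower fitted value, with a median of -0.22. Without 1X cytokine replicate 1 there were 15, the median was -0.14 and 0 were called. Mmp3, the metalloproteinase stromelysin 1, had 85.0, 4.61 and 1.65 CPM in 1X cytokine and 0.714, 1.88 and 0.600 CPM in 2X cytokine, the high value again being that of replicate 1.

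Genes that carry the cytokine signal showed small differences. Of 20 IL-1 and TNF receptors and adaptors 15 had a lower fitted value, with a median of -0.18 and, without 1X cytokine replicate 1, -0.08. Tnfrsf1a, the main TNF receptor of astrocytes, had 109, 91.8 and 78.0 CPM in 1X cytokine and 73.2, 71.2 and 57.3 CPM in 2X cytokine, without overlap. Il1r1, the signalling IL-1 receptor, had 23.3, 12.7 and 9.34 CPM against 8.21, 9.04 and 8.70 CPM, also without overlap, though replicate 3 of 1X cytokine was close to the 2X libraries. Of the receptor-proximal kinases, Irak1 had a log2 fold change of -0.39 and Irak4 of -0.56, both without overlap, and without 1X cytokine replicate 1 the values were -0.43 and -0.33. In all, 7 of these 20 genes did not overlap between the groups, beside 12.5% of all genes. Of the 7, 6 were lower and 1 was higher, where 6.76% and 5.71% of all genes were.

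The NF-kB subunits, inhibitors and targets had a median log2 fold change of -0.19, but 0.04 without 1X cytokine replicate 1 and 0.04 on the log2(TPM + 0.1) scale. Nfkbia, the inhibitor that NF-kB itself induces, had 588, 339 and 181 CPM in 1X cytokine and 321, 350 and 245 CPM in 2X cytokine, and the groups overlapped. Of 22 cytokines and chemokines 17 had a lower fitted value, with a median of -0.58 and, without that library, -0.19. Il1b had 265, 8.83 and 3.85 CPM in 1X cytokine and 8.93, 9.80 and 1.80 CPM in 2X cytokine. Cxcl16, a membrane-bound chemokine, had 41.8, 24.2 and 20.3 CPM against 16.4, 17.3 and 10.5 CPM, and its groups did not overlap. In the gp130 and STAT3 pathway 6 of 13 genes had a higher and 7 a lower fitted value, so the higher Socs3 was not shared by the list. Stat3 had 284, 192 and 153 CPM in 1X cytokine and 157, 147 and 137 CPM in 2X cytokine. Osmr, the oncostatin M receptor, had a log2 fold change of -0.85 and, without replicate 1, -0.52.

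Of 19 genes of MHC class I presentation 18 had a lower fitted value, with a median of -0.47 and, without 1X cytokine replicate 1, -0.09. Psmb10, an immunoproteasome subunit, had 29.2, 25.7 and 21.4 CPM in 1X cytokine and 18.9, 15.8 and 20.7 CPM in 2X cytokine, and Erap1, which trims peptides, had 61.7, 53.0 and 50.0 CPM against 45.0, 41.8 and 39.6 CPM. Neither gene overlapped between the groups, as held for 15.8% of the list and 12.5% of all genes. Type I interferon-stimulated genes went the other way without that library, from a median of -0.24 to 0.19, and Ifit3 had 36.4, 40.7 and 44.5 CPM in 1X cytokine and 56.4, 55.0 and 45.9 CPM in 2X cytokine. Of 15 glucocorticoid-responsive genes 12 had a lower fitted value, and 13 without that library, with medians of -0.47 and -0.23. Sgk1, a kinase that glucocorticoids induce, had 373, 194 and 124 CPM in 1X cytokine and 73.9, 81.8 and 110 CPM in 2X cytokine, without overlap. Fkbp5, a chaperone of the glucocorticoid receptor, had 17.7, 21.5 and 3.30 CPM in 1X cytokine and 3.93, 6.03 and 4.50 CPM in 2X cytokine. The groups overlapped for Fkbp5, since 1X cytokine replicate 3 was below every 2X library.

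**Figure D3:**
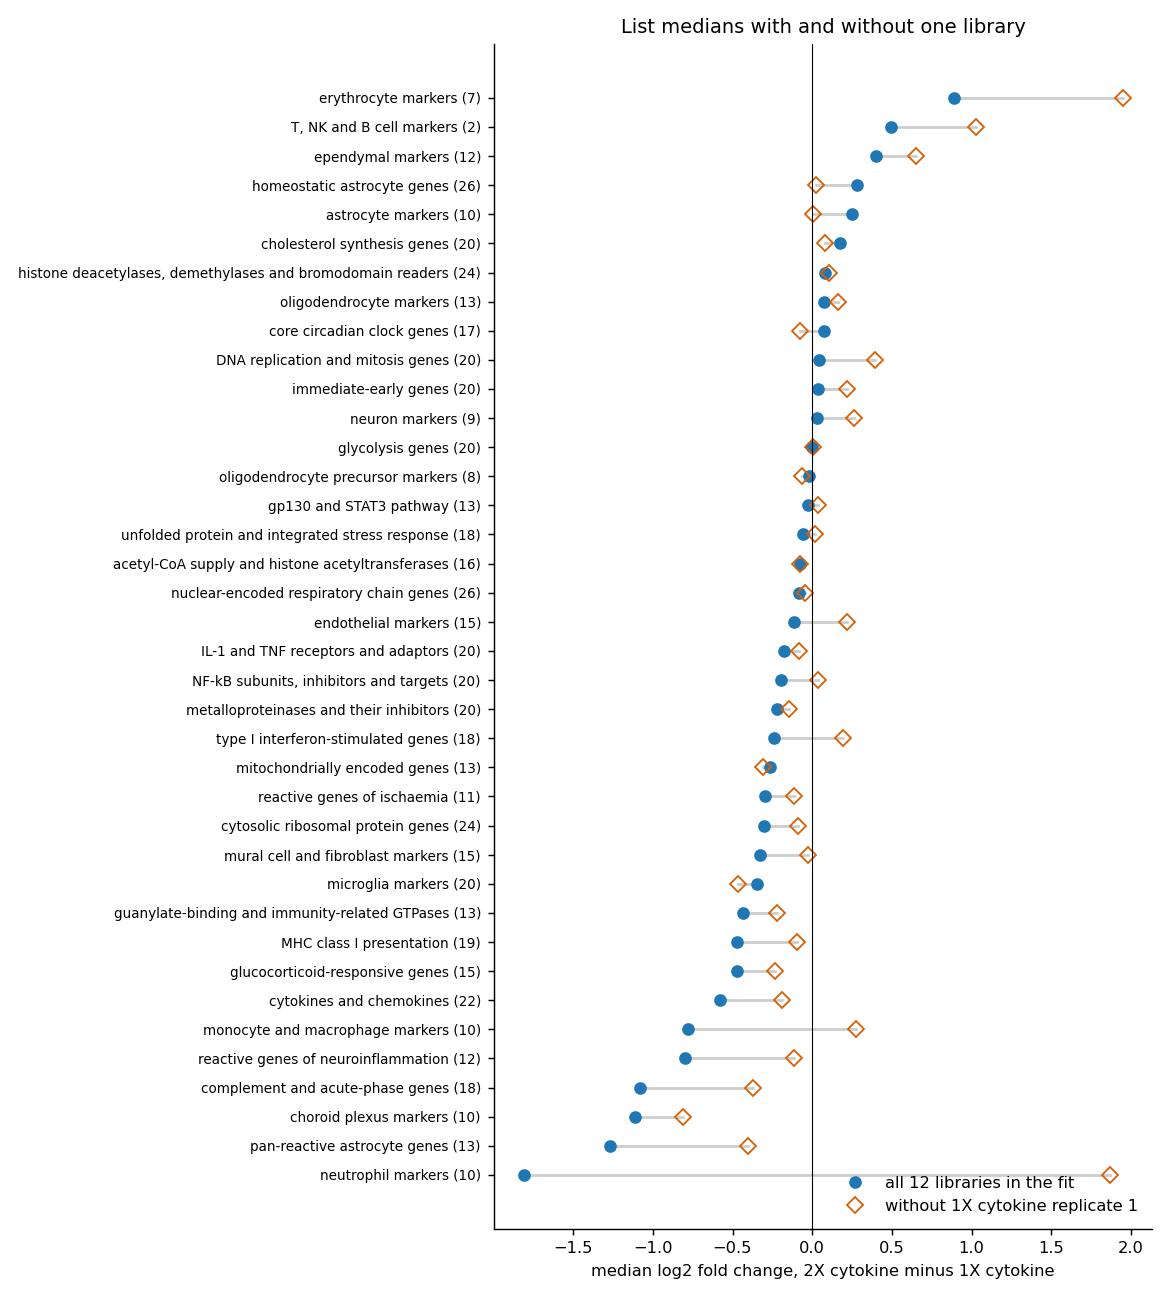
The median log2 fold change, 2X minus 1X cytokine, is on the x axis for each of 38 gene lists, with the number of measured genes in brackets; filled circles use all 12 libraries in the fit and open diamonds leave out 1X cytokine replicate 1. The pan-reactive median moves from -1.27 to -0.40 and the neutrophil median from -1.81 to 1.87, while the choroid plexus median (-1.11 and -0.81) and the ependymal median (0.40 and 0.65) stay on their side of 0.

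Homeostatic astrocyte genes were near equal once that library was set aside. With it, 24 of 26 had a higher fitted value in 2X cytokine, where 47.7% of all genes did, and the median was 0.28. Without it 14 of 26 were higher and the median was 0.03. Aqp4, the water channel of the endfeet, had 327, 455 and 659 CPM in 1X cytokine and 732, 646 and 623 CPM in 2X cytokine. Slc1a2, the main glutamate transporter, had 969, 1878 and 2176 CPM against 1783, 1665 and 1717 CPM, and Slc7a10, an amino acid exchanger of astrocytes, had 161, 585 and 842 CPM against 815, 773 and 737 CPM. The groups overlapped for all of these, and 0 of the 26 genes had an unadjusted p under 0.05.

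Genes of acetyl-CoA supply and histone acetyltransferases, the enzymes that write histone acetylation, had a median log2 fold change of -0.08 both with and without 1X cytokine replicate 1 and of 0.10 on the log2(TPM + 0.1) scale, and 0 of 16 had an unadjusted p under 0.05. Acly, which makes cytosolic acetyl-CoA from citrate, had 239, 173 and 260 CPM in 1X cytokine and 221, 217 and 190 CPM in 2X cytokine. Ep300, the acetyltransferase p300, had 57.5, 59.1 and 45.6 CPM against 47.8, 52.0 and 49.2 CPM. On the log2 scale the difference was -0.10 (SE 0.17) in Acly and -0.13 (SE 0.15) in Ep300, so neither exceeded its error. On the TPM scale the fitted values of both genes had the opposite sign, at 0.09 and 0.52 with a pseudocount of 0.1. Mitochondrially encoded genes, which make core subunits of the respiratory chain, were lower in 12 of 13 cases with and without that library, with medians of -0.27 and -0.31. mt-Nd3 had 205, 252 and 345 CPM in 1X cytokine and 169, 206 and 212 CPM in 2X cytokine, and mt-Atp8 had 187, 182 and 209 CPM against 150, 156 and 157 CPM, the latter without overlap. The groups did not overlap in 7.69% of these 13 genes, beside 12.5% of all genes. The nuclear-encoded respiratory chain genes had a median of -0.08.

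Markers of other cells of the ventricle wall had fitted values on opposite sides of 0, although 0 of 10 choroid plexus and 0 of 12 ependymal markers passed the adjusted edgeR threshold, and their part in the results above was not tested. In bulk RNA fewer cells of a type and less RNA per cell cannot be told apart. All 10 choroid plexus markers, the epithelium that makes cerebrospinal fluid, had a lower fitted value in 2X cytokine, with a median of -1.11 and, without 1X cytokine replicate 1, -0.81. Their joint level, as the geometric mean of CPM + 0.5, was 274, 127 and 196 in 1X cytokine and 48.3, 87.6 and 137 in 2X cytokine. It overlapped, since 1X cytokine replicate 2 was below 2X cytokine replicate 3. In PBS the level was 88.5, 237 and 239 in 1X and 154, 130 and 143 in 2X, so replicates 2 and 3 of 1X PBS also lay above 2X PBS. Ttr, the transthyretin gene, had 27229, 11545 and 20336 CPM in 1X cytokine and 3632, 7257 and 13671 CPM in 2X cytokine, and F5, coagulation factor V, had 216, 112 and 137 CPM against 25.3, 51.6 and 88.5 CPM, without overlap. Kl, which encodes klotho, and Otx2, a transcription factor of the plexus, had log2 fold changes of -1.29 and -0.95. Of the 10 markers 8 were lower at an unadjusted p under 0.05 with all libraries, beside 4.82% of all genes. Without 1X cytokine replicate 1 there was 1, where 338 of 14432 genes were lower at that threshold. The groups did not overlap in 20% of the 10 markers, beside 12.5% of all genes.

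All 12 ependymal markers, of the ciliated cells that line the ventricles, had a higher fitted value with and without 1X cytokine replicate 1, with medians of 0.40 and 0.65. Their level was 61.8, 37.8 and 47.3 in 1X cytokine and 56.8, 67.9 and 68.7 in 2X cytokine, with overlap through 1X cytokine replicate 1. Ccdc153, a cilium gene, had 87.5, 62.2 and 70.9 CPM in 1X cytokine and 111, 119 and 121 CPM in 2X cytokine, and Rarres2, which encodes chemerin, had 188, 128 and 151 CPM against 198, 217 and 219 CPM, both without overlap. Tmem212 and Foxj1, the latter the master regulator of motile cilia, had log2 fold changes of 0.56 and 0.38, and of 0.82 and 0.68 without 1X cytokine replicate 1. Neutrophil markers had levels of 31.0, 2.03 and 2.36 in 1X cytokine and 12.0, 2.83 and 1.62 in 2X cytokine. S100a9, a neutrophil alarmin, had 158, 5.76 and 5.49 CPM against 36.1, 10.5 and 0.900 CPM, so replicate 1 of each group was the highest. Microglia markers were lower in 19 of 20 cases and, without that library, in 20 of 20, with medians of -0.34 and -0.46, but their levels, 26.8, 34.9 and 42.7 against 27.2, 37.1 and 17.6, overlapped and 2X cytokine replicate 3 was the lowest. Tmem119, a microglial membrane protein, had 44.2, 64.1 and 70.3 CPM in 1X cytokine and 46.8, 43.7 and 26.4 CPM in 2X cytokine.

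Mural cell and fibroblast markers had levels of 310, 181 and 143 in 1X cytokine and 162, 184 and 121 in 2X cytokine, and the median log2 fold change of -0.33 became -0.03 without 1X cytokine replicate 1. Dcn, the matrix proteoglycan decorin, had 228, 132 and 113 CPM against 115, 97.6 and 74.4 CPM. Igf2, a growth factor that choroid plexus also expresses, had a log2 fold change of -0.87. Erythrocyte markers varied widely within both groups: their level was 404, 58.9 and 141 in 1X cytokine and 755, 263 and 129 in 2X cytokine, and Hba-a2, an alpha globin gene with a near-identical copy, had 396 to 5384 CPM over the 6 libraries. Among the 6 cytokine libraries Klrb1c of the lymphocyte list and Slc17a7 of the neuron list were at 0.

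**Figure D4:**
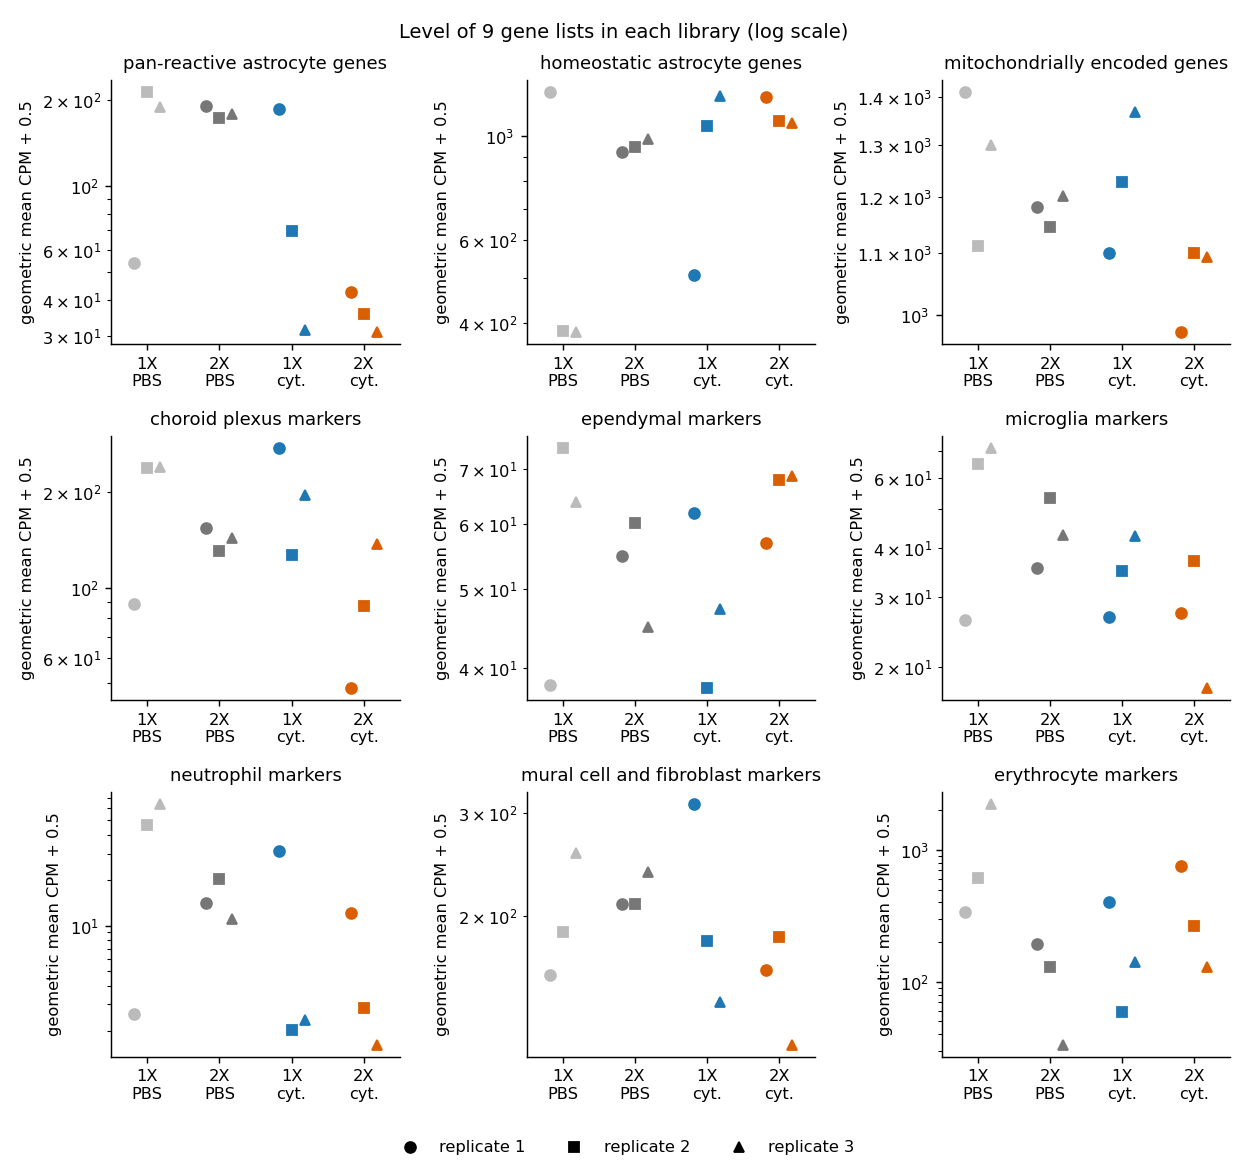
The level of 9 lists in each of the 12 libraries is the geometric mean of CPM + 0.5, on a log scale, by group on the x axis with 1 symbol per replicate number. In the 2X cytokine group the choroid plexus level runs from 48.3 to 137 and the ependymal level from 56.8 to 68.7, against 127 to 274 and 37.8 to 61.8 in 1X cytokine.

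Whether the cytokine groups differed more than the PBS groups did was tested as the difference between both 2X against 1X differences, which share no library. With all 12 libraries edgeR called 0 of 14490 genes (0%), and 754 (5.2%) had an unadjusted p under 0.05. The smallest adjusted p was 0.109. The 2X against 1X difference in PBS alone also gave 0 calls, with 914 genes (6.31%) at an unadjusted p under 0.05. Tspan4 had a difference of -1.60 with an unadjusted p of 7.54e-06: it was lower in 2X than in 1X cytokine and higher in 2X PBS (123, 124 and 153 CPM) than in 1X PBS (76.8, 70.1 and 57.5 CPM). Inmt had the same shape, with 12.6, 11.9 and 11.6 CPM in 1X PBS, 27.5, 26.1 and 40.0 CPM in 2X PBS and a difference of -2.61. Timp1 had a difference of -3.36 with an unadjusted p of 3.21e-05. Socs3 had 261, 367 and 361 CPM in 1X PBS and 232, 252 and 251 CPM in 2X PBS, and a difference of 1.05. Traf1, with 58.2, 73.4 and 56.4 CPM against 42.7, 46.1 and 31.4 CPM in PBS, had a difference of 1.51.

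Without 1X cytokine replicate 1 and 1X PBS replicate 1 together, the same test called 1386 of 14848 genes (9.33%), 909 negative (6.12%) and 477 positive (3.21%). These 2 libraries were left out because of their values, and the 1X groups then have 2 libraries each, so the calls describe the remaining 10 libraries. The biological coefficient of variation was 0.123 in that fit and 0.237 with all 12. Timp1 had a difference of -2.99 (edgeR adjusted p 0.000256), Tspan4 of -1.64 (0.000259), Inmt of -2.82 (0.000593), Socs3 of 1.26 (0.000217) and Traf1 of 1.55 (0.00354). Of the 20 NF-kB subunits, inhibitors and targets 8 were called positive and 1 negative, with a median difference of 0.75, while their median 2X against 1X difference in cytokine was 0.04 with 0 called. Other lists had as many or more positive calls for their size, given here with the median difference and the median 2X against 1X difference in cytokine. They were 16 of 20 immediate-early genes (1.00, with 0.21 in cytokine) and 6 of 10 neutrophil markers (2.94, with 1.86). Further ones were 7 of 15 endothelial markers (1.47, with 0.22), 4 of 10 monocyte and macrophage markers (1.70, with 0.26) and 6 of 7 erythrocyte markers (6.25, with 1.95). The last were 6 of 12 ependymal markers (0.96, with 0.66). In all but the neutrophil and ependymal markers the larger part of the median difference thus lay in the PBS libraries. What part these other cell types had in the calls was not tested. Nfkbia had a difference of 1.49 with an adjusted p of 0.00587, and its levels were 339 and 181 CPM in the remaining 1X cytokine libraries against 924 and 803 CPM in the remaining 1X PBS libraries. Of the 26 homeostatic astrocyte genes 24 were called negative, with a median difference of -1.34, while their median 2X against 1X difference in cytokine was 0.03. Slc1a2 had 546 and 546 CPM in 1X PBS replicates 2 and 3 and 1765, 1823 and 2015 CPM in 2X PBS, so this difference lay in the PBS libraries. Gfap was called at -1.38 and Ccdc153 at 1.30 (edgeR adjusted p 0.00218 and 0.000781), and 6 of 12 ependymal markers were called positive. Of the choroid plexus markers 0 of 10 were called. Their median difference was -0.0018, while their median 2X against 1X difference in cytokine was -0.78, so PBS had a fall of like size in that fit.

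In that fit 2X against 1X cytokine itself gave 3 calls of 14848 (0.0202%), 2 lower (0.0135%) and 1 higher (0.00673%). Timp1 fell by 2.49 and Stra6 fell by 1.34 on the log2 scale, with edgeR adjusted p-values of 0.00932 and 0.00706. Stra6 was not called in the test of the difference, which gave -0.40 (SE 0.19, edgeR adjusted p 0.226). A missed call does not show that its fall was the same in PBS. In PBS, replicates 2 and 3 of the 1X group also lay above every 2X library for Stra6, while the left-out 1X PBS replicate 1 lay below them. Cdhr4, a cadherin-related gene named because it completes the 3, rose by 0.94 with an adjusted p of 0.0161.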

How the data were processed

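RNA-seq was measured in 12 libraries, 3 per label, and the 6 labelled cytokine are the subject here. Per the labels' protocols, reads were quantified by the authors with kallisto 0.46.1 on transcripts of GRCm38. The deposited estimated counts are per transcript and not normalised between libraries. The deposited TPM values add up to one common total per library. Whether counting used strand is not stated in the labels. Estimated counts were summed over 55401 genes and rounded. Positions are those of GENCODE M21 where the versioned identifier matched (98.1%).

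Gene tests used edgeR 4.0.16 (R 4.3.3; quasi-likelihood F test, filterByExpr, TMM, 1 coefficient per group, 12 libraries in one fit, Benjamini-Hochberg adjustment over 14490 genes, threshold 0.05). CPM are on TMM-scaled library sizes. Without molecular identifiers a floor covers counting error only; the floor of 3 counts was 0.543 to 1.60 CPM. Tests were checked on simulated data. Alternatives used DESeq2 1.42.0 and limma 3.58.1 (limma-trend on log2-scaled TPM with a pseudocount, voom with quality weights), other filters and scalings, the replicate number as a block, and fewer libraries. The other 19 samples, of ATAC-seq, were not analysed here.

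The libraries compared, the gene lists and the alternatives were chosen with earlier results of these data known. Named genes are those past the threshold, up to 8 per direction with the smallest p among non-overlapping protein-coding genes of at least 10 CPM, up to 4 per function list by smallest p, up to 2 per cell type list by smallest p and 2 by highest CPM, and a panel of reactive and homeostatic genes. Not all are printed. A part of the rule for genes past the threshold in the 5 cytokine libraries alone, without 1X cytokine replicate 1, gave no gene.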

Additional observations from a re-analysis of the deposited data

How the results depend on the processing

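The 4 calls for 2X against 1X cytokine were kept by RLE scaling (4 calls). There were 8 with DESeq2, 9 on the log2(TPM + 0.1) scale with limma-trend, 193 with no low count filter and 1 with voom quality weights. There were 0 with a mean CPM of at least 10, with protein-coding genes only and with the 6 cytokine libraries alone, where edgeR gave 708, 895 and 968 genes at an unadjusted p under 0.05. Leaving out 1 library at a time gave 0 to 3 calls, and 0 to 0 with the cytokine libraries alone. Timp1 stayed negative in every setting run, between -3.35 and -2.47, but its edgeR adjusted p was 0.6835 with the 6 cytokine libraries alone and 0.1248 with protein-coding genes only.

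The 0 calls for the difference between the cytokine and PBS responses became 13 with DESeq2, 2 and 1 on the TPM scale with pseudocounts of 0.1 and 1, 70 with no low count filter and 199 with voom quality weights. They were 0 to 17 with 1 library left out, the 17 without 1X PBS replicate 1, and 1386 when both 1X replicate 1 libraries were left out. On the TPM scale the median of this difference over all genes was -0.14 and -0.12, against -0.01 with edgeR.

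Pairing by replicate number was not established. Deviations of same-numbered cytokine libraries from their group means correlated at 0.05, -0.02 and 0.16, and those of the other cytokine pairs at -0.15 to 0.11. With 3 libraries per group, deviations from a group mean depend on each other, so these values cannot exclude pairing. With the replicate block 0 genes were called by edgeR for 2X against 1X cytokine and 0 for the difference, with 810 and 620 at an unadjusted p under 0.05.

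Some single genes changed sign. Without both replicate 1 libraries the log2 fold change was 0.22 for C3, 0.13 for Vim, 0.23 for Nfkbia, -0.22 for Slc1a2 and 1.44 for S100a9. With voom quality weights it was 0.049 for Vim, 0.076 for Nfkbia, 0.0095 for Acly and -0.10 for Slc1a2. On the TPM scale, pseudocounts 0.1 and 1, it was 0.089 and 0.088 for Acly and 0.52 and 0.50 for Ep300. With 1 of the 12 libraries left out the range was -3.94 to 0.24 for C3, -0.20 to 0.13 for Vim, -0.60 to 0.24 for Nfkbia, -4.36 to 0.019 for Il1b, -0.24 to 0.029 for Acly, -0.22 to 0.29 for Slc1a2 and -3.41 to 1.47 for S100a9. With the cytokine libraries alone it was -3.96 to 0.23 for C3, -0.22 to 0.13 for Vim, -0.61 to 0.24 for Nfkbia, -4.39 to 0.037 for Il1b, -0.26 to 0.013 for Acly, -0.22 to 0.27 for Slc1a2 and -3.46 to 1.47 for S100a9. The cause was not tested.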
